A study of Mus musculus with 8 samples.

Results

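The insulin-like growth factor genes studied here were *Igf1*, the receptor genes *Igf1r* and *Igf2r*, and the binding protein genes *Igfbp2*, *Igfbp3*, *Igfbp4*, *Igfbp5*, *Igfbp6* and *Igfbp7*. They were chosen by symbol, with earlier results of these data known, and all 9 had a row among the 15111 genes of the deposited table. RNA came from primary dermal fibroblasts of tamoxifen-fed adult mice, which had been cultured for 72 h on fibronectin in serum replacement medium. The control group (Tgfb1fl/fl, 4 libraries) carried floxed *Tgfb1* alleles and no Cre recombinase. The TGFβ1FKO group (Tgfb1fl/fl:Col1a2-CreERT, 4 libraries) carried the same floxed alleles and, in addition, a tamoxifen-inducible Cre under the *Col1a2* promoter, which acts in fibroblasts and other collagen-producing cells. Both groups were therefore floxed and fed tamoxifen, so Cre and the loss of *Tgfb1* go together and cannot be told apart. The labels number the libraries but do not say whether each came from its own mouse, and p-values then measure the spread between these libraries.

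IGF1 is a secreted growth factor that fibroblasts make and answer to. It binds the tyrosine kinase receptor IGF1R, which signals through IRS adaptors, PI3 kinase and AKT, whereas IGF2R takes IGF2 and mannose 6-phosphate-tagged enzymes to lysosomes. Binding proteins hold IGFs outside the cell and lengthen or block their action until proteases cut them, and TGFβ1 is known to raise *Igfbp3* in several cell types. IGFBP7 binds IGFs weakly and is often set apart from the other family members.

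None of the 9 genes passed the test between the groups, but their estimates went in different directions. *Igfbp3* and *Igf1* were lower in TGFβ1FKO fibroblasts, with 66.6% and 84.3% of the control mean. *Igfbp5* and *Igf1r* were higher, by 35.5% and 15.1%. These 4 genes had an unadjusted p-value under 0.05, which 7.46% of all genes in the table had. *Igfbp6* and *Igfbp7*, the most abundant of the family, differed by less than the spread between libraries.

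The promoter sequences of *Igf1r*, *Igfbp3* and *Igfbp5* are given because these 3 genes had the lowest unadjusted p-values. Each window ends next to a transcription start given by RefSeq, and capitals mark matches to the motifs named below. The sequences are from RefSeq on GRCm38.p6, read 5′ to 3′ on the strand of the gene. *Igf1r* lies on the plus strand and its window is chr7:67952007-67952256. *Igfbp3* lies on the minus strand with the window chr11:7213924-7214173, and *Igfbp5* on the minus strand with chr1:72874885-72875115, where 19 bases that GENCODE assigns to an exon were left off.
Igf1r: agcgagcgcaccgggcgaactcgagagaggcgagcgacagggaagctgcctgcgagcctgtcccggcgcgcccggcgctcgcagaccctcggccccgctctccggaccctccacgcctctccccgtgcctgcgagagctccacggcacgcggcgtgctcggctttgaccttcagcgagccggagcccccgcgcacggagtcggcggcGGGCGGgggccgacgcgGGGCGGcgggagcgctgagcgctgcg
Igfbp3: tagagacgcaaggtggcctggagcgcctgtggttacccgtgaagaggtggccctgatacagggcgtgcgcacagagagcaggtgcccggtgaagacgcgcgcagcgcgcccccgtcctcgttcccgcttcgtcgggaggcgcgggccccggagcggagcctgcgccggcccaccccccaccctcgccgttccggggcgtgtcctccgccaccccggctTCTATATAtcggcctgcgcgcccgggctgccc
Igfbp5: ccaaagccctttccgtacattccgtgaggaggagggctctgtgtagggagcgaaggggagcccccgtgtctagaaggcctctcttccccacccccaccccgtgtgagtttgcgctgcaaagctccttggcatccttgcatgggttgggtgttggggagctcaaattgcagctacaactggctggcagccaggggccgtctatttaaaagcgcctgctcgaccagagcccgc
The motifs were searched on both strands. A TATA box was searched as TATANA and a GC box as GGGCGG. The CAGA box, to which SMAD3 can bind, was searched as CAGACA. For AP-1 the letters were TGANTCA, and for the E-box they were CACGTG. In *Igf1r*, a promoter with 77.6% G and C, 2 GC boxes end 37 and 20 bases before the RefSeq start, which lies upstream of the gene start that GENCODE gives. The *Igfbp3* window, with 73.2% G and C, holds 2 overlapping TATA matches that end 26 and 24 bases before the RefSeq start. The *Igfbp5* window matched none of the 5 motifs in these letters, and over its 250 bases it had 58.8% G and C. Other forms of the motifs were not searched. A CAGA box was in 0 of the 10 windows of the 9 genes and in 17.0% of the 32536 windows of all genes. A GC box was in 4 of the 10 windows and in 33.0% of all windows, and a TATA box in 3 of the 10 and in 22.3% of all windows. The TATA matches of *Igfbp6* end 142 and 140 bases before its RefSeq start. An AP-1 site was in 2 of the 10 windows and in 6.73% of all windows, and an E-box in 2 of the 10 and in 6.04% of all windows. The AP-1 matches were in the window of *Igf1*, all 250 bases of which GENCODE assigns to exons, and in a window of *Igfbp2* with 65 exonic bases. These matches describe letters and do not show binding.

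The table held normalised counts, that is, reads scaled by a size factor for each library. After subtraction of the 0.5 that had been added to each value, whole reads could be recovered, and they summed to between 16988998 and 23071528 per library. The fewest reads of any of the 9 genes in any library were 95, for *Igfbp3*. No 2 libraries of a group were copies of each other, since the lowest chi-square per degree of freedom between their reads was 5.14. *Tgfb1*, the targeted gene, stood at 1298 to 1483 normalised counts in control and at 228 to 326 in TGFβ1FKO libraries, so no library went against its label. All 12 fibroblast markers had reads, and none was called.

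The levels of different genes were compared as normalised counts per kb of exon in GENCODE M21. *Igfbp7* had the highest level, at 10463 ± 899 (SD, n = 8) per kb, followed by *Igfbp6* with 4714 ± 448 (SD, n = 8). Each of them lay above the next gene in 8 of 8 libraries. *Igfbp5* had 1275 ± 309 per kb, *Igfbp2* 1229.6 ± 498 and *Igf2r* 1153 ± 133 (SD, n = 8). Neighbours among these 3 genes were not separated: *Igfbp5* was above *Igfbp2* in 5 and *Igfbp2* above *Igf2r* in 4 of 8 libraries. Lower levels were found for *Igfbp4* (300.5 ± 83.9), *Igf1r* (148 ± 12.8), *Igf1* (90.2 ± 12.9) and *Igfbp3* (59.98 ± 18.4 per kb; SD, n = 8). In this lower range *Igfbp4* lay above *Igf1r* and *Igf1r* above *Igf1* in 8 of 8 libraries, and *Igf1* above *Igfbp3* in 7. The mRNA of the IGF2 receptor was thus 7.79 times as abundant per kb of exon as that of the IGF1 receptor, with a range over the libraries of 7.02 to 8.499. *Igfbp7* exceeded *Igfbp3* by 106 to 361 times. With the longest transcript in place of all exons, *Igfbp2* moved above *Igfbp5* and the other 7 ranks did not change. *Igf2r* and *Igf1r* then had 1208 and 218 per kb, so the ratio of these receptor genes was smaller and depends on the length used.

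**Figure D1:**
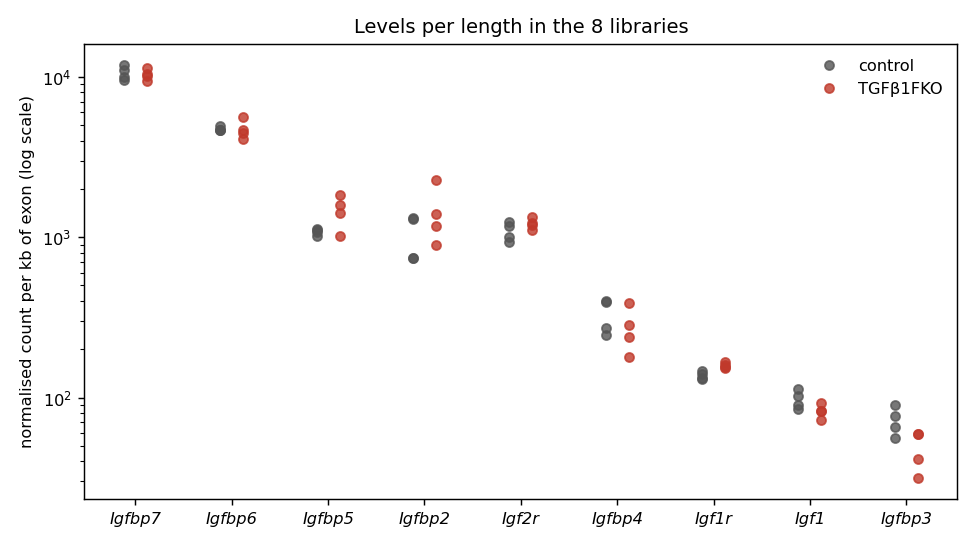
Normalised counts per kb of exon on a log scale for the 9 genes, ordered by their mean, with 1 point per library (grey, control; red, TGFβ1FKO; n = 4 each). *Igfbp7* and *Igfbp6* stand above all others, the points of *Igfbp5*, *Igfbp2* and *Igf2r* intermingle, and *Igfbp3* is lowest.

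*Igf1* (ENSMUSG00000020053, GRCm38 chr10:87858265-87937042, plus strand) encodes the ligand. Its normalised counts were 844, 1015, 894 and 1124 in control replicates 1 to 4. In TGFβ1FKO replicates 1 to 4 they were 819, 917, 717 and 815. Of the TGFβ1FKO libraries, 3 lay below every control, and replicate 2 lay within the control range. The means were 969 ± 126 and 817 ± 81.3 (SD, n = 4). In limma, the log2 fold change of *Igf1* came to -0.24 (SE 0.096, 95% interval -0.45 to -0.03; unadjusted p = 0.0255, adjusted p = 0.632, limma with Benjamini-Hochberg adjustment over all genes). The log2 values of *Parp12*, *Lrsam1* and *Gm6548* followed those of *Igf1* most closely over the 8 libraries. Their root-mean-square differences from *Igf1*, with each gene's mean subtracted, were 0.0597, 0.0666 and 0.0675, where the SD of *Igf1* itself was 0.20. They were the closest of 11560 genes compared, and this likeness is a description.

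*Igf1r* (ENSMUSG00000005533, chr7:67952827-68233668, plus strand) encodes the signalling receptor. Control replicates 1 to 4 had normalised counts of 2235, 2466, 2194 and 2346. TGFβ1FKO replicates 1 to 4 had 2551, 2669, 2799 and 2620.2. Every TGFβ1FKO library lay above every control library, and *Igf1r* was the only 1 of the 9 genes in which the groups did not overlap. Over all genes this share was 3.79%, of which 1.69% were higher and 2.1% lower in TGFβ1FKO libraries. The means were 2310.3 ± 122 and 2659.9 ± 105 (SD, n = 4), a difference with p = 0.0286 in a two-sided exact permutation test, the smallest p that 4 libraries against 4 allow. For *Igf1r* limma estimated a log2 fold change of 0.20 (SE 0.054, 95% interval 0.09 to 0.32; unadjusted p = 0.00247, adjusted p = 0.394, limma). The interval therefore ended well below the 0.6 that a call required. Omitting any 1 of the 8 libraries gave estimates from 0.18 to 0.24.

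*Igf2r* (ENSMUSG00000023830, chr17:12682406-12769664, minus strand) encodes the scavenger receptor of IGF2 and is imprinted in mice. Its normalised counts ranged from 8638 to 11618 in control and from 10390.4 to 12378 in TGFβ1FKO libraries. The groups overlapped, although 4 of 4 TGFβ1FKO libraries lay above the control mean of 10148 ± 1395 (SD, n = 4). An estimate of 0.17 on the log2 scale was obtained, with a 95% interval from -0.03 to 0.36 (adjusted p = 0.703, limma), and it was 0.09 without control replicate 3. *Airn*, the antisense RNA that starts within *Igf2r*, had 44.9 ± 4.36 normalised counts in control and 56.9 ± 11.8 in TGFβ1FKO fibroblasts (SD, n = 4; adjusted p = 0.725, limma). The libraries were made without strand information. The annotated exons of *Airn* and *Igf2r* do not overlap, but reads where these genes overlap could not be told apart by strand.

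**Figure D2:**
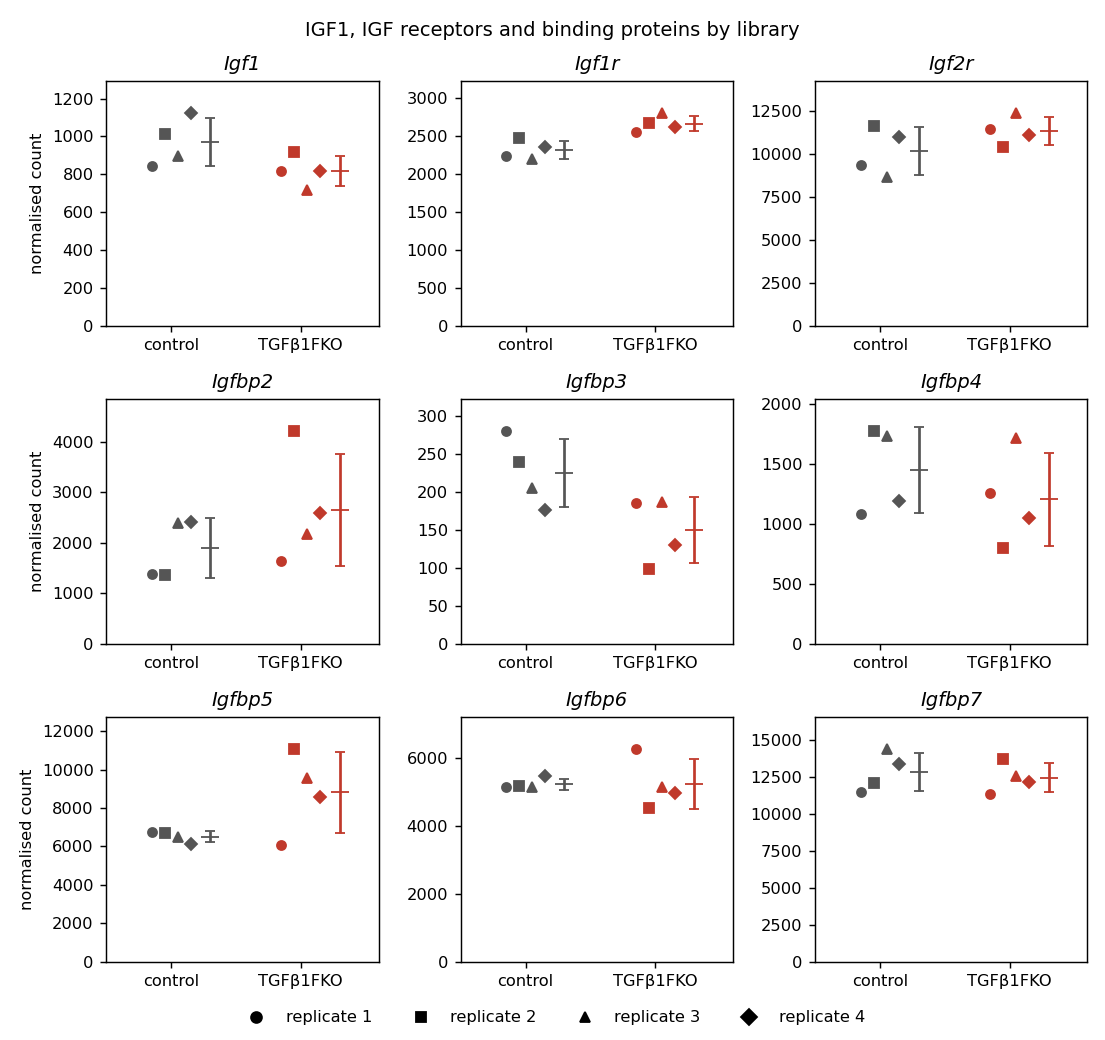
Normalised counts of the 9 genes in each library, with 1 symbol per library (shape, replicate number; grey, control; red, TGFβ1FKO) and, beside them, the mean with its SD (n = 4). *Igf1r* is the panel in which the groups separate, and in the *Igfbp5* panel TGFβ1FKO replicate 1 lies at 6076 while replicates 2 to 4 lie between 8561 and 11066. Replicates with 1 number in both groups are not paired.

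*Igfbp3* (ENSMUSG00000020427, chr11:7206086-7213923, minus strand) encodes the main IGF carrier of blood, which is also secreted by fibroblasts. It had normalised counts of 280.5, 240.1, 205 and 176 in control replicates 1 to 4. In TGFβ1FKO replicates 1 to 4 it had 185, 98.4, 187 and 129.6. Replicates 2 and 4 of TGFβ1FKO lay below every control, whereas replicates 1 and 3 lay between control replicates 4 and 3. The means were 225 ± 45.2 and 150.1 ± 43.6 (SD, n = 4). On the log2 scale *Igfbp3* differed by -0.61 (SE 0.20, 95% interval -1.05 to -0.17; unadjusted p = 0.0104, adjusted p = 0.536, limma). It was the largest difference in size among the 9 genes in this test, and the only 1 past 0.6. In edgeR with the table's size factors and in DESeq2 against 0 it was -0.58, which is not past 0.6. The direction did not change with any library left out, and the estimate stayed between -0.73 and -0.43.

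*Igfbp5* (ENSMUSG00000026185, chr1:72857932-72874884, minus strand) encodes a binding protein that attaches to the extracellular matrix and is a common product of fibroblasts. Control replicates 1 to 4 were close to each other, with normalised counts of 6727, 6692, 6489 and 6114. TGFβ1FKO replicates 1 to 4 had 6076, 11066, 9546 and 8561. Replicate 1 thus lay below every control, and the other 3 lay above every control. The coefficient of variation was 4.32% in control and 23.8% in TGFβ1FKO fibroblasts. The means were 6506 ± 281 and 8812 ± 2095 (SD, n = 4). The estimated log2 difference of *Igfbp5* was 0.41 (SE 0.14, 95% interval 0.11 to 0.699; unadjusted p = 0.0108, adjusted p = 0.538, limma). With each of the 8 libraries left out in turn, the estimate ranged from 0.28 to 0.57. The adjusted p ranged from 0.0229 to 0.897 (limma). Both 0.57 and 0.0229 came without TGFβ1FKO replicate 1, the library that lay below every control. That estimate was still below the fold that a call required. Without TGFβ1FKO replicate 2 the estimate was 0.28 with an adjusted p of 0.813 (limma). TGFβ1FKO replicate 1 also had the highest *Tgfb1* of its group, 326 normalised counts against 228 to 295 in the other 3. Whether these values go together was not tested.

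*Igfbp2* (ENSMUSG00000039323, chr1:72824503-72852474, plus strand) ends 5.46 kb from the end of *Igfbp5* on the facing strand. It encodes a binding protein that prefers IGF2. Its normalised counts were 1379.9, 1363, 2394 and 2419.7 in control replicates 1 to 4. In TGFβ1FKO replicates 1 to 4 they were 1641, 4213, 2172 and 2586. Replicate 2 of TGFβ1FKO stood far above the rest, and the groups overlapped. Its spread was the widest of the 9 genes on the log2 scale (SD 0.54 over 8 libraries). Its log2 estimate was 0.46, with a 95% interval from -0.10 to 1.02 (adjusted p = 0.716, limma). Without TGFβ1FKO replicate 2 the estimate was 0.21. The genes closest to *Igfbp2* in their pattern were *Fam174b*, *Ramp1* and *Arhgef16*, at root-mean-square differences of 0.18 to 0.204 on the log2 scale.

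*Igfbp4* (ENSMUSG00000017493, chr11:99041244-99054392, plus strand) encodes a binding protein that blocks IGF action until the protease PAPP-A cuts it. In control replicates 1 to 4 it had normalised counts of 1086.5, 1777, 1738 and 1191. In TGFβ1FKO replicates 1 to 4 it had 1258, 795, 1716 and 1054. Each group had libraries at both ends, and the means of 1448 ± 360 and 1206 ± 389 (SD, n = 4) differed by less than the SD. For *Igfbp4* the log2 estimate was -0.29, with a 95% interval from -0.74 to 0.17 (adjusted p = 0.791, limma). It depended on single libraries, with -0.10 without TGFβ1FKO replicate 2, -0.47 without TGFβ1FKO replicate 3, -0.18 without control replicate 2 and -0.19 without control replicate 3.

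*Igfbp6* (ENSMUSG00000023046, chr15:102144362-102149511, plus strand) encodes a further binding protein with a preference for IGF2. It had 5245 ± 161 normalised counts in control and 5238 ± 743 in TGFβ1FKO fibroblasts (SD, n = 4). The means were close, whereas the TGFβ1FKO libraries ranged from 4527 to 6278 and the controls from 5152 to 5486. *Igfbp7* (ENSMUSG00000036256, chr5:77349240-77408041, minus strand) had 12838 ± 1307 in control and 12460.3 ± 977 in TGFβ1FKO fibroblasts. The 95% interval of the log2 fold change was -0.19 to 0.17 for *Igfbp6* and -0.21 to 0.13 for *Igfbp7* (adjusted p = 0.987 and 0.932, limma). Both estimates were near 0 and changed sign with some libraries left out. *Igfbp7* shares exon bases with *Polr2b* on the other strand, and reads on these shared bases cannot be told apart by strand. *Polr2b*, a subunit of RNA polymerase II, had 1321 ± 73.4 and 1410.3 ± 53.8 normalised counts (SD, n = 4; adjusted p = 0.729, limma).

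**Figure D3:**
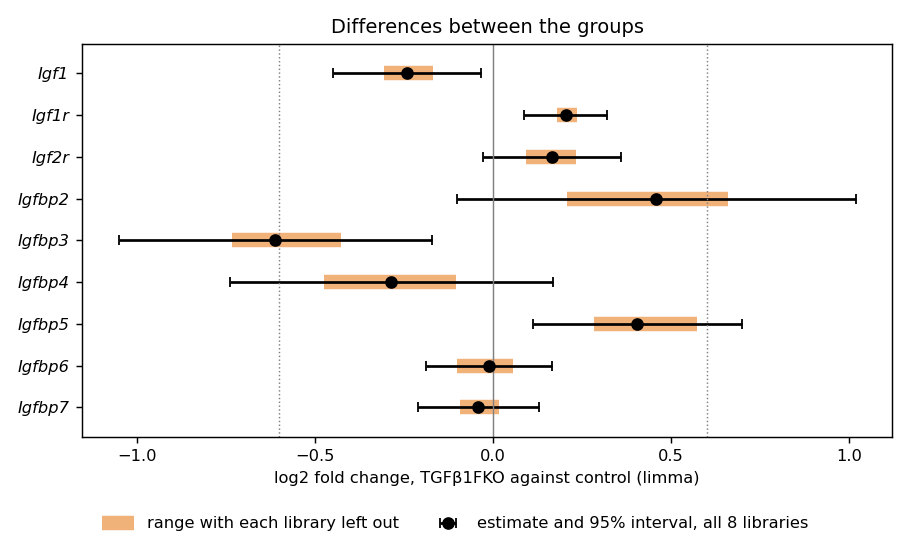
Log2 fold change of each gene, TGFβ1FKO against control, with its 95% interval from limma (black) and the range of the estimate when each of the 8 libraries is left out in turn (orange). Dotted lines mark 0.6 in either direction. The intervals of *Igf1*, *Igf1r*, *Igfbp3* and *Igfbp5* do not include 0 before adjustment over all genes, and the interval of *Igfbp2* is the widest.

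Over the 9 genes, 5 estimates were lower and 4 higher in TGFβ1FKO fibroblasts. Their median was -0.01 on the log2 scale, where the median over all genes was 0.0031. None was called in limma's test (adjusted p-value under 0.05 and absolute log2 fold change over 0.6), and 0.086% of all genes were. The adjusted p-values of the 9 genes were between 0.394 and 0.987. Past an unadjusted p-value of 0.05 were 4 genes, split into 2 lower ones, against 3.87% of all genes, and 2 higher ones, against 3.59%. The 9 genes were chosen with earlier results of these data known, so these shares are a description. Neither edgeR's quasi-likelihood test nor DESeq2's test against 0 called any of the 9, and both gave the same 4 genes an unadjusted p-value under 0.05. *Igf1r*, *Igfbp3* and *Igfbp5* had an unadjusted p-value under 0.05 with each of the 8 libraries left out, and *Igf1* in 5 of these 8 fits.

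The make-up of the binding protein mRNAs was also described, as the share of each in the summed level per kb of the 6 genes. *Igfbp7* made up 59.4% ± 1.41 of this sum in control and 56.5% ± 1.41 in TGFβ1FKO libraries (SD, n = 4). Its share lay between 58.1% and 61.4% in controls and between 54.4% and 57.4% in TGFβ1FKO libraries, so that the groups did not overlap. The share of *Igfbp5* was 6.11% ± 0.701 and 7.99% ± 1.51, and that of *Igfbp2* 5.66% ± 1.39 and 7.76% ± 2.77 (SD, n = 4). For both of these the groups overlapped. *Igfbp6* took 26.5% ± 1.91 and 26.0% ± 4.97, *Igfbp4* 1.84% ± 0.44 and 1.51% ± 0.511, and *Igfbp3* 0.41% ± 0.113 and 0.266% ± 0.0856 of the sum (SD, n = 4). In TGFβ1FKO replicate 2 *Igfbp2* and *Igfbp5* had their highest shares of all libraries, 11.6% and 9.33%. *Igfbp3*, *Igfbp4* and *Igfbp6* had their lowest shares in that library, 0.159%, 0.912% and 20.6%. Shares of a sum depend on each other, and no test was made on them.

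**Figure D4:**
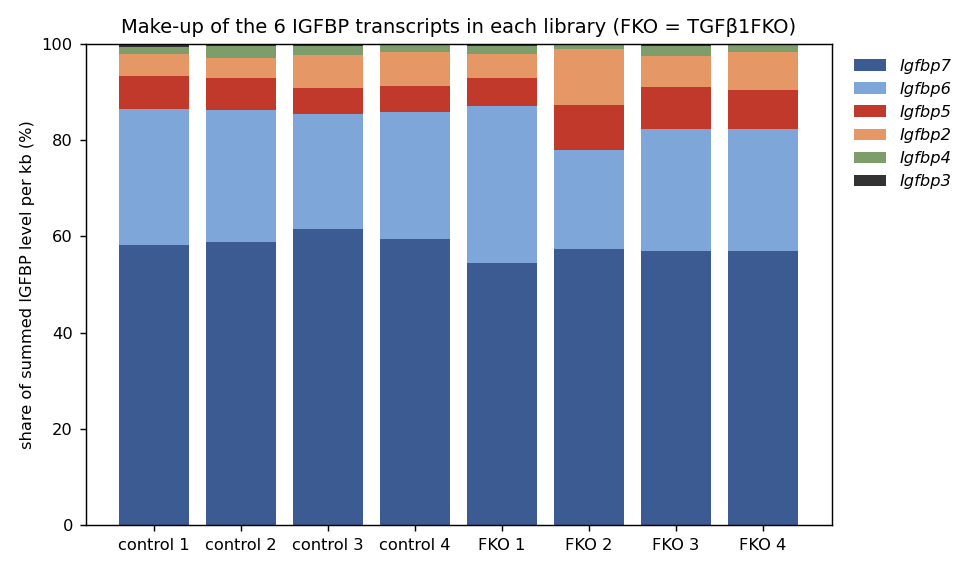
Share of each binding protein gene in the summed level per kb of the 6 genes, 1 bar per library, adding to 100%. *Igfbp7* and *Igfbp6* together make up 78.0% to 87.0%. The red and orange parts, *Igfbp5* and *Igfbp2*, are tallest in TGFβ1FKO replicate 2, and *Igfbp3* is the thin top line.

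The other genes of the pathway were taken from 6 lists with 62 genes. These lists were chosen with earlier results of these data known, so shares over them are a description. Of the 62 genes, 55 had a row in the table. None was called in limma's test, and 8 of the 55 (14.5%) had an unadjusted p-value under 0.05, 4 lower and 4 higher, against 7.46% of all genes. With edgeR and with DESeq2 against 0 none was called either. The groups did not overlap in 1 of the 55 genes (1.82%), against 3.79% of all genes. *Igf2*, *Igfbp1*, *Igfals* and the insulin genes had no row and were not analysed here. *Insr*, the insulin receptor, had 694 ± 58.7 normalised counts in control and 759 ± 31.5 in TGFβ1FKO fibroblasts (SD, n = 4; adjusted p = 0.703, limma).

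Among the 8 genes for proteases that cut binding proteins and for their inhibitors, none had an unadjusted p-value under 0.05. *Pappa*, which encodes the IGFBP4 protease PAPP-A, had 1699 ± 322 and 1964 ± 360 normalised counts (SD, n = 4; adjusted p = 0.753, limma). *Stc2*, an inhibitor of PAPP-A, had 475 ± 60.2 and 423 ± 31.4 (SD, n = 4; adjusted p = 0.725, limma). *Ctsd*, the lysosomal protease cathepsin D, was the most abundant of the list, at 18505 ± 405 and 17214 ± 748 (SD, n = 4; adjusted p = 0.679, limma). For none of these 3 genes was the difference called.

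Of the 28 genes for signalling inside the cell, 13 had lower and 15 higher estimates, with a median log2 fold change of 0.02. *Grb14*, an adaptor that inhibits the insulin receptor, and *Mtor*, a kinase of growth control, had an unadjusted p-value under 0.05. *Grb14* had 943 to 1190 normalised counts in control and 1077 to 1203 in TGFβ1FKO libraries (log2 fold change 0.18, adjusted p = 0.654, limma). *Mtor* had 654 to 891 and 842 to 911 (log2 fold change 0.19, adjusted p = 0.669, limma). In both the groups overlapped. *Akt1*, the most abundant gene of this list and a central kinase below the receptor, had 6506 ± 273 and 6433 ± 261 (SD, n = 4).

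All 3 IGF mRNA-binding protein genes had higher estimates in TGFβ1FKO fibroblasts. *Igf2bp1* had the largest, with a log2 fold change of 0.71 on 22.3 to 37.9 normalised counts in control and 35.5 to 64.2 in TGFβ1FKO libraries (adjusted p = 0.536, limma). *Igf2bp3* had 168.96 ± 27.4 and 227 ± 46.7 (SD, n = 4; log2 fold change 0.42, adjusted p = 0.599, limma). *Igf2bp2*, the most abundant at 1244 ± 60.7 and 1331 ± 71.2 (SD, n = 4), differed by 0.097 on the log2 scale (adjusted p = 0.732, limma). These proteins bind *Igf2* mRNA and many other mRNAs.

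In the growth hormone axis, which controls *Igf1* in many tissues, *Ghr* was the 1 gene of 6 with an unadjusted p-value under 0.05. The growth hormone receptor had 2084, 2628, 2183 and 2528 normalised counts in control replicates 1 to 4 and 2253, 1823, 1943 and 2083 in TGFβ1FKO replicates 1 to 4. In 3 of 4 TGFβ1FKO libraries it lay below every control (log2 fold change -0.22, adjusted p = 0.632, limma). Of the 9 FOXO target genes, which FOXO factors raise when insulin or IGF signals are low, 7 had lower and 2 higher estimates, with a median of -0.11. *Pik3ip1*, an inhibitor of PI3 kinase, was the gene without overlap of the groups, at 614 to 689 normalised counts in control and 553 to 585 in TGFβ1FKO libraries (log2 fold change -0.18, adjusted p = 0.57, limma). *Klf15*, a transcription factor of metabolism, had 243 ± 14.6 and 188 ± 32.1 (SD, n = 4; log2 fold change -0.39, adjusted p = 0.5102, limma). *Cdkn1b*, an inhibitor of the cell cycle, had 930.3 ± 73.3 and 838 ± 24.4 (SD, n = 4; log2 fold change -0.15, adjusted p = 0.658, limma).

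**Figure D5:**
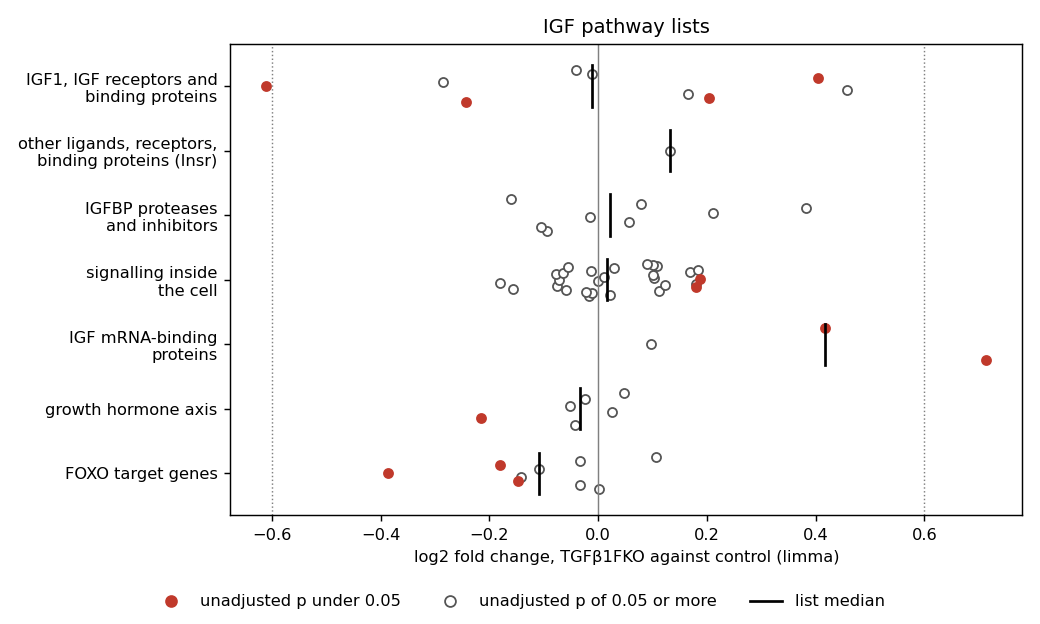
Log2 fold changes, TGFβ1FKO against control, of the 9 genes and of the other genes of the pathway by list, with 1 point per gene (red, unadjusted p-value under 0.05) and the median of each list as a black line. Nearly all points lie within the dotted lines at 0.6, *Igfbp3* (-0.61) and *Igf2bp1* (0.71) are past them, and no gene shown was called.

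Markers of other cell types were read in the same libraries. In such bulk RNA, fewer cells of a type and less RNA per cell cannot be told apart. Of the 8 Schwann cell markers, 7 had a row, all 7 had lower estimates, and *Sox10*, a transcription factor of these cells, was among those called as lower in TGFβ1FKO fibroblasts. In 5 of these 7 genes the groups did not overlap, against 3.79% of all genes, with 2.1% lower in TGFβ1FKO libraries. Of all genes, 50.9% had higher estimates. *Sox10* was at 11.8% of its control mean, and *Erbb3* and *Cdh19*, which were not called, were at 14.6% and 16.4%. The summed normalised counts of the 7 genes, most of them from *Ngfr*, ranged from 1689.8 to 2437 in control and from 891 to 1811 in TGFβ1FKO libraries. TGFβ1FKO replicate 1, the library with *Igfbp5* below all controls, had the highest of these sums in its group, and the other 3 were between 891 and 1269. All 8 endothelial markers had lower estimates and none was called, with sums of 538 to 829.8 and of 521 to 560.3. Endothelial cells are a known source of *Igfbp3*, *Igfbp4* and *Igfbp7*. In control replicates 1 to 4 the endothelial sums were 681, 829.8, 780 and 538. Beside them *Igfbp3* had 280.5, 240.1, 205 and 176, *Igfbp4* 1086.5, 1777, 1738 and 1191, and *Igfbp7* 11481, 12087, 14391 and 13394. In TGFβ1FKO replicates 1 to 4 the sums were 521, 560.3, 522 and 527. Single markers varied more than these sums. *Pecam1* had 17.2, 44.5, 16.6 and 23.3, and *Cdh5* had 54.7, 117, 158 and 62.0. *Tek*, the most abundant of the list, had 292, 154, 211 and 248. Even sums therefore do not show an even part of endothelial cells. In the same libraries *Igfbp3* had 185, 98.4, 187 and 129.6, *Igfbp4* 1258, 795, 1716 and 1054, and *Igfbp7* 11363, 13709, 12595 and 12175. For macrophages, which can make *Igf1*, 5 of 8 markers had a row, 3 with lower and 2 with higher estimates, and their sums were 563 to 653 and 379 to 621. The defining markers *Adgre1*, *Ptprc* and *Itgam* had no row and were not analysed here. The 7 of 8 pericyte and smooth muscle markers with a row summed to 1683 to 2424 and 1804 to 2474. Of these 7 genes, 4 had lower and 3 higher estimates. Among them, *Myh11* was higher in every TGFβ1FKO library (419 to 498 against 556 to 916 normalised counts) but was not called (adjusted p = 0.0649, limma). *Cspg4* went the other way, at 68.6% of its control mean, and was not called either (adjusted p = 0.599, limma). The part of other cells in the values of the IGF genes was not tested.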

How the data were processed

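RNA of 4 control and 4 TGFβ1FKO fibroblast cultures was analysed. Per the labels, the authors used HISAT2 2.0.5 on GRCm38, featureCounts 1.5.0-p3 and DESeq2 1.42.0, and per the paper removed transcripts with a low sum of counts over the samples. The deposited values are a normalised signal, counts divided by a size factor with 0.5 added. The authors' own deposited columns of log2 fold changes, Wald scores and p-values were not used.

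After the 0.5 was subtracted, whole reads were recovered for 100% of values in all libraries (within 0.01 of a read). Log2(normalised count + 1) was fitted by group in limma 3.58.1 (R 4.3.3), using its trend option, with Benjamini-Hochberg adjustment over 15111 genes. A call needed an adjusted p-value under 0.05 together with a log2 fold change past 0.6 in either direction. The pseudocount understates changes of low genes. The recovered reads were tested with edgeR 4.0.16 and DESeq2 1.42.0 as alternatives, with other scalings, pseudocounts, filters and thresholds, a replicate block, and fits that omit each library. The tests were tested on simulated data. Levels per kb used GENCODE M21, whose build matches that of the labels. The genes and lists were chosen with earlier results of these data known. The text names all 9 genes, genes of the pathway lists with an unadjusted p-value under 0.05 or no overlap of the groups, the most abundant list genes, and the 3 genes closest in pattern to *Igf1* and to the most variable of the 9 (mean normalised count of at least 50). Further genes of the lists were named after their values were seen. Precision is limited by counting error where reads are few, and PCR reads are not independent molecules. Keratinocyte, adipocyte, melanocyte and skeletal muscle markers were also listed. The values of 1 marker gene are not reported here.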

Additional observations from a re-analysis of the deposited data

Results flagged for a closer look

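Within each group of 4 libraries, the gap between the highest or lowest library and its nearest neighbour was set against Dixon's 95% critical value. Of 64 such groups, 6 had a library past it, and chance would give 3.2. *Igfbp6* was at 5486 normalised counts in control replicate 4 and at 5152 to 5184 in the other controls. TGFβ1FKO replicate 1 had a share of *Igfbp7* of 54.4% among the binding protein genes, against 57.0% to 57.4% in the others. Control replicate 1 had 1189.8 normalised counts of *Grb14* against 943 to 971. The summed endothelial markers were 560.3 in TGFβ1FKO replicate 2 against 521 to 527. The summed keratinocyte markers were 152 in control replicate 4 against 113 to 116, and the summed adipocyte markers 3449.7 in control replicate 1 against 5340.1 to 5704.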

How the results depend on the processing

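The count of 0 called genes among the 9 IGF genes held in all alternatives, as did the 0 among the 55 other pathway genes. The number of called genes in the whole table was 13 and moved to 20 in edgeR with the table's size factors, 22 in edgeR with TMM, 56 in DESeq2 against 0, 3 among the 12946 genes that had no library under 10 reads, 25 at an adjusted p under 0.1 and 5 at 0.01. It ranged from 5 to 32 with each library left out, with 32 without control replicate 4, 7 without control replicate 1, 6 without control replicate 2 and 5 without control replicate 3 or TGFβ1FKO replicate 2 or 4. Apart from the filter, the thresholds and the left-out libraries, the cause was not tested. With the replicate number as a block it was 31. Deviations of libraries with 1 number in both groups correlated between -0.134 and 0.159, and 2 of 8 libraries correlated best with their own number, so they share only a number. Of 153 alternative log2 fold changes of the 9 genes, 148 kept direction and stayed uncalled. The other 5 changed sign: those of *Igfbp6* (-0.1024 to 0.0549 with each library left out) and *Igfbp7* (-0.0927 to 0.0159). *Igfbp5* ranged from 0.28 to 0.57. The number of the 9 genes without overlap was 1 with TMM as well. With the longest transcript, the level was 127 per kb for *Igf1*, 218 for *Igf1r* and 1738 for *Igfbp2*, whose control share became 7.74%.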

Other observations

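Among the other marker lists, all 4 keratinocyte markers with a row had few reads, with sums of 113 to 152 normalised counts in control and 148 to 173 in TGFβ1FKO libraries. Of the 4 adipocyte markers with a row 2 had lower and 2 higher estimates, of the 3 melanocyte markers 2 had lower and 1 a higher estimate, and of the skeletal muscle markers *Acta1* alone had a row. None of these genes was called in limma's test, and *Dsp* and *Trp63* had an unadjusted p-value under 0.05.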
